A study of Mus musculus with 6 samples.

Results

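The ion channel genes described here are the 186 mRNA entries, of 44788 entries in the count table, whose symbols begin with the stems of potassium (Kcn), calcium (Cacn), sodium (Scn), CLC chloride (Clcn) and acid-sensing (Asic) channel genes, of the TRPC, TRPM and TRPV cation channels, of the Piezo channels or of the anoctamins (Ano). The rule reads gene symbols and uses no measured value. The pattern also caught 3 genes that encode no channel subunit, namely Trpc4ap, a ubiquitin ligase adaptor, Scnm1, a splicing factor, and Kcnrg, which interferes with the assembly of potassium channels. The other 183 were sorted into 15 families.

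The libraries came from chondrocytes, the cells of cartilage, taken from the femoral epiphysis of C57BL/6 mice and grown in DMEM/F12 medium with 10% serum. The sample annotation gives postnatal day 1 as the age, whereas the culture notes name P2. The study asks how activation of EGFR, the epidermal growth factor receptor, affects these cells. Cells of the TGF-alpha plus gefitinib group met 10 µM gefitinib, an inhibitor of the EGFR kinase, 30 min ahead of the ligand and then had both agents for 48 h, cells of the TGF-alpha group had 10 ng/ml of TGF-alpha, an EGFR ligand, for 48 h, and control cells had vehicle for 48 h. All 3 groups were in 0.1% DMSO according to the treatment notes, although the study outline calls the control PBS. Each group has 2 libraries sequenced on the Ion Proton, and cells given gefitinib alone were not analysed here. No source says whether the libraries of a group came from separate animals or cultures, so the p-values measure only the spread between these libraries, which may be technical.

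Ion channels are membrane proteins that open a path for particular ions. Chondrocytes do not fire trains of action potentials, and their channels are known mainly for setting the resting potential and cell volume and for turning load and osmotic change into calcium signals, with TRPV4 and the Piezo proteins as the best studied sensors. A channel is built from pore-forming subunits, often together with accessory subunits that change its gating or its delivery to the membrane, and families differ in what opens them.

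Library totals ran from 12317407 to 16096263 counts. All 9 chondrocyte markers examined were tested and were called lower with TGF-alpha than in control, and higher with gefitinib than with TGF-alpha alone. Their summed level was 57616 and 54776 CPM (counts per 1000000 counts of the library) with TGF-alpha plus gefitinib, 34012 and 32904 CPM with TGF-alpha, and 66840 and 62289 CPM in control. Many channel genes are best known from nerve and muscle. Of 9 neuron markers, 4 were tested, Rbfox3 and Nefl were at 0 in all 6 libraries and Snap25 had at most 1 count. The summed level of that list was 30.0 and 27.1 CPM with TGF-alpha plus gefitinib, 19.0 and 15.6 CPM with TGF-alpha, and 31.1 and 34.7 CPM in control, most of it from Map2. Smooth muscle markers (5 of 6 tested) summed to 1148 and 1138 CPM with TGF-alpha plus gefitinib, 903 and 886 CPM with TGF-alpha, and 1272 and 1186 CPM in control. Their members did not move alike. With TGF-alpha against control Acta2 (log2 -1.77) and Cnn1 (log2 -2.13) were called lower and Tagln (log2 0.24) higher. Cspg4, at 618 and 599 CPM with TGF-alpha, was not called. Osteoblast markers (5 of 6 tested) summed to 117 and 119 CPM with TGF-alpha plus gefitinib, 84.2 and 90.6 CPM with TGF-alpha, and 178 and 181 CPM in control. Of the 5 tested, 3 were called higher and 2 lower with gefitinib against TGF-alpha. Glial markers (3 of 6 tested, mostly S100b) summed to 117 and 122 CPM with TGF-alpha plus gefitinib, 67.7 and 68.9 CPM with TGF-alpha, and 87.1 and 80.6 CPM in control. Macrophage markers (2 of 4 tested) summed to 4.93 and 6.40 CPM with TGF-alpha plus gefitinib, 8.73 and 11.3 CPM with TGF-alpha, and 4.29 and 4.46 CPM in control. The 2 tested macrophage markers moved in opposite directions, with Cd68 called higher with TGF-alpha than in control (log2 2.51 ± 0.28, edgeR adjusted p = 5.9e-06) and Lyz2 lower (log2 -1.58 ± 0.48, adjusted p = 0.022). Osteoclast markers (2 of 4 tested, nearly all of it Ctsk) summed to 101 and 103 CPM with TGF-alpha plus gefitinib, 64.6 and 72.0 CPM with TGF-alpha, and 65.9 and 66.7 CPM in control. Among them Calcr was at 0 in all libraries and Ocstamp had at most 1 count. The part of these lists in the channel results was not tested. Skeletal muscle markers summed to between 0.720 and 2.45 CPM and endothelial markers to between 0.145 and 0.649 CPM in any library.

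Channel genes made up a small and narrow part of the RNA. They took 0.210% and 0.205% of all counts with TGF-alpha plus gefitinib, 0.172% and 0.173% with TGF-alpha, and 0.190% and 0.190% in control. Piezo1, Trpv4 and the adaptor gene Trpc4ap supplied between 39.2% and 46.4% of the channel-pattern counts of each library. Of the 186 genes, 40 had no count in any library, 71 had counts but fell below the filter on low counts, with 15 counts as the highest value of any of them, and 75 were tested. At these totals, 3 counts correspond to between 0.191 and 0.240 CPM in a library, and the absence of counts for a gene means only that it lay below about that level. Of the 75, 60 reached the filter's cutoff in both libraries of all 3 groups. The cutoff was reached in both libraries of only 1 group by Scn3b, Kcnab3, Kcng2, Kcnj2, Kcna2 and Asic3, and of no group by 3 genes, Cacnb4 and Scn1a among them. Such genes entered the test through the libraries in which they were high, so their calls are descriptions and support nothing.

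Levels were compared between genes as CPM per kilobase of merged exons. Trpv4, which encodes an osmotically and mechanically responsive calcium-permeable channel and is mutated in human skeletal dysplasias, had the highest level, at 77.0 ± 4.07 CPM per kilobase with TGF-alpha plus gefitinib, 44.1 ± 0.758 with TGF-alpha and 65.4 ± 0.349 in control (SD, n = 2 each). Its control level ranked 460th of 21167 mRNA entries with a known length. Piezo1, a pressure-gated cation channel, followed at 44.0 CPM per kilobase with TGF-alpha plus gefitinib, 32.6 with TGF-alpha and 36.7 in control. Among the genes below these were Cacng7, a member of the gamma subunit family that also handles glutamate receptors, and Kcns1, a potassium channel subunit that forms no pore alone. They had 19.6 and 17.3 CPM per kilobase in control cells. The lysosomal chloride-proton exchanger Clcn7 had 10.3 CPM per kilobase in control, and Kcnk2, Ano10, Clcn4-2 and the accessory subunit Kcne4 lay between 8.02 and 8.27, too close together to be put in order.

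**Figure D1:**
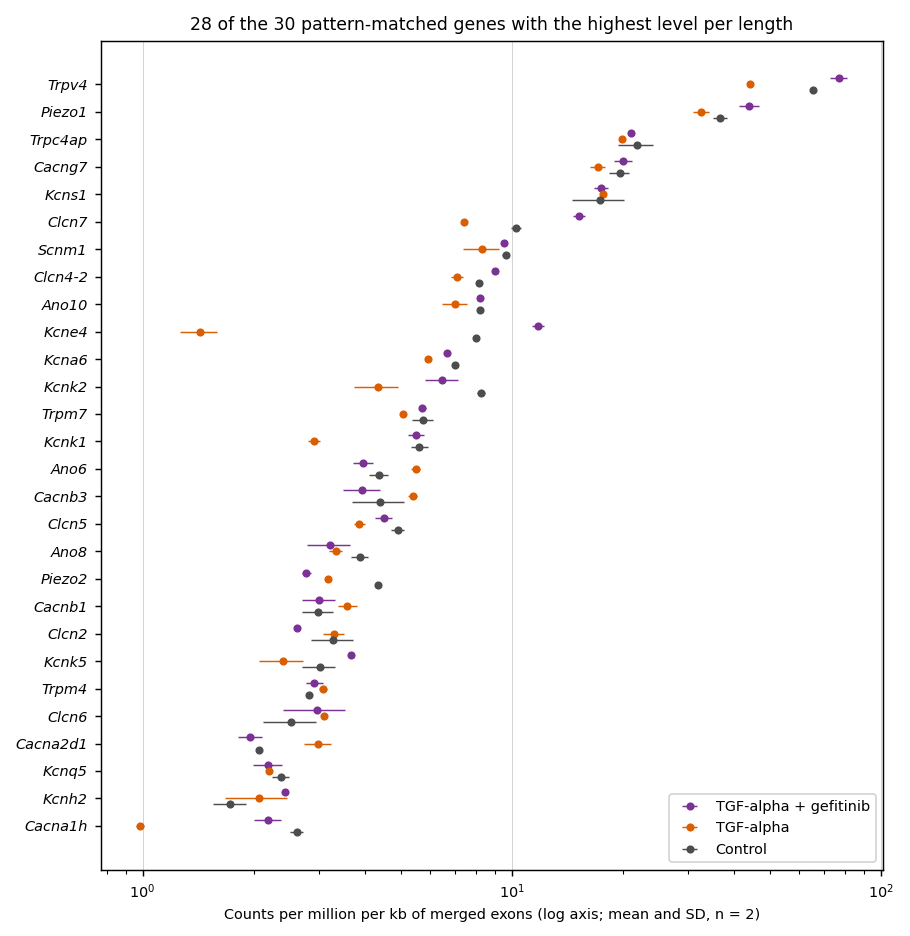
Level per exon length of 28 of the 30 channel-pattern genes with the highest mean, in CPM per kilobase on a log axis; points are group means and bars the SD of 2 libraries. Trpv4 and Piezo1 lead in every group, and Kcne4 has its TGF-alpha value far to the left of the other 2 groups.

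With TGF-alpha for 48 h, more channel genes were lower than higher relative to control cells. Of the 75 tested, 35 were called by edgeR's quasi-likelihood test at a Benjamini-Hochberg adjusted p under 0.05, against 29.9% of all 15362 genes tested. The background shares here and below include entries other than mRNA, whereas the channel genes are all mRNA entries. Of these 35, 9 were higher (background 15.9%) and 26 were lower (background 14.0%). At least 2-fold changes were called for 3 higher and 10 lower genes, where 4.19% and 2.88% of all genes met the same rule. The median log2 fold change was -0.25 over the channel genes and 0.00 over all genes. Fewer channel genes were called when any 1 of the 4 libraries compared was left out, and fewer of all genes were called in those fits too. Across the 6 fits that each left out 1 library, 4 of the 9 higher genes and 14 of the 26 lower genes were called every time. In bulk RNA, fewer cells of a type and less RNA per cell cannot be told apart.

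With gefitinib added to TGF-alpha, more channel genes were higher than lower relative to TGF-alpha alone. The test called 37 of 75 (background 34.0%), 25 of them higher (background 17.0%) and 12 lower (background 16.9%). At least 2-fold changes were called for 11 higher and 5 lower genes, against 3.41% and 4.47% of all genes. The median log2 fold change was 0.22 over the channel genes and 0.01 over all genes. Fewer channel genes were called when any 1 of the 6 libraries was left out. Fewer of all genes were called in those fits too. Across the 6 fits that each left out 1 library, 13 of the 25 higher and 7 of the 12 lower genes were called every time. Both comparisons use the same 2 TGF-alpha libraries, so a gene that is low or high in those libraries tends to move oppositely in them, and each comparison's own values are given side by side below. The family counts that follow are to be read against the same shares over all genes, which for TGF-alpha against control were 15.9% higher and 14.0% lower, and for TGF-alpha plus gefitinib against TGF-alpha 17.0% higher and 16.9% lower. With 2 to 12 tested genes a family, they are descriptions.

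**Figure D2:**
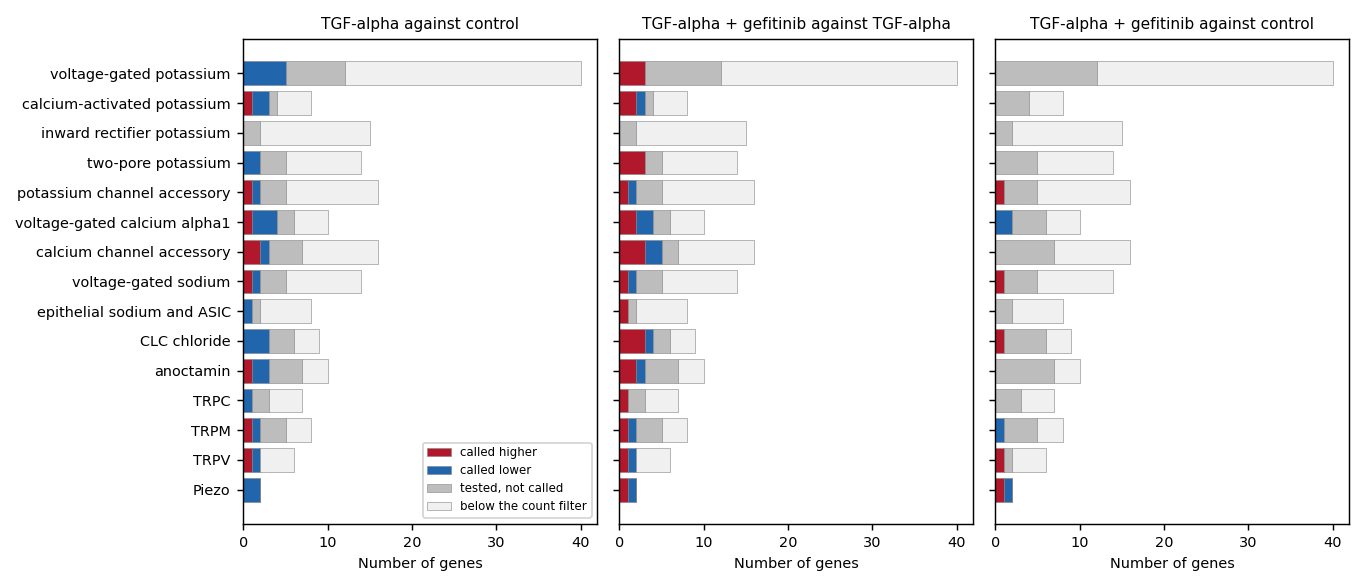
Number of genes called higher, called lower, tested without a call and below the count filter in each of 15 channel families, for TGF-alpha against control (left), TGF-alpha plus gefitinib against TGF-alpha (middle) and TGF-alpha plus gefitinib against control (right). Voltage-gated potassium channels are the largest family with 40 genes, of which 28 lie below the filter, and the right panel holds few calls.

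Up to 250 bases before the RefSeq start are shown for Kcnn4, Trpm6 and Kcne4, which had the largest changes among the well-counted channel genes, and for the tension-gated channels Piezo1 and Kcnk2. They are from RefSeq on GRCm38.p6, 5′ to 3′ on the gene's strand, at chr7:24370013-24370262 (plus), chr19:18749480-18749729 (plus), chr1:78816661-78816757 (plus), chr8:122551330-122551579 (minus) and chr1:189402274-189402523 (minus). The RefSeq and GENCODE starts differ for 2 of these genes. The Trpm6 window ends 253 bases before the GENCODE start of the gene, and 153 of the 250 bases of the Kcne4 window lie inside the GENCODE gene, so only the 97 bases before it are shown. RefSeq gives 4 windows for Kcnk2, and the one at the GENCODE start is shown. Capitals mark motif matches on either strand, of AP-1 (TGANTCA), a cAMP response element (by its name, CRE), ETS (CCGGAAG), SOX (ACAATGG) or a TATA box (TATAAA).
Kcnn4: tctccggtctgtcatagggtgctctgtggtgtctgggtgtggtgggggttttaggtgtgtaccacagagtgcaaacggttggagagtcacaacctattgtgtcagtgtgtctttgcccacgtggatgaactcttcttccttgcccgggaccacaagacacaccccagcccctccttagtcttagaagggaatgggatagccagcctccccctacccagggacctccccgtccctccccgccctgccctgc
Trpm6: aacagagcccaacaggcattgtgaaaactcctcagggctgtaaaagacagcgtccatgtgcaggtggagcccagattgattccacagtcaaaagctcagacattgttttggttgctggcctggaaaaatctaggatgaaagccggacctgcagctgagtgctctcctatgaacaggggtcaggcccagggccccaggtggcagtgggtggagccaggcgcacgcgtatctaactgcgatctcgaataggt
Kcne4: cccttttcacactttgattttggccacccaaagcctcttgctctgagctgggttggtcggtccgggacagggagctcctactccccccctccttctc
Piezo1: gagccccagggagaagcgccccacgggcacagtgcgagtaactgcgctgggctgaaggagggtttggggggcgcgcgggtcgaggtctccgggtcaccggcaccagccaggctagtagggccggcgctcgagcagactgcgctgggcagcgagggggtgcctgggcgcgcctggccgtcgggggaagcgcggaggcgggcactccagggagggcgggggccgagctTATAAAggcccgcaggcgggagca
Kcnk2: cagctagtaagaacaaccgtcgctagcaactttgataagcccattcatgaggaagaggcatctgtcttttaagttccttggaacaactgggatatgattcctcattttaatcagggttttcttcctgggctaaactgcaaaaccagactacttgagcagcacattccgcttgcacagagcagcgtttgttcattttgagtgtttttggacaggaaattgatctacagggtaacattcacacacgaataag
The windows of Kcnn4, Trpm6 and Kcne4 hold no match, and Piezo1 has a TATA box. Of the 4 Kcnk2 windows 2 hold no match, the one shown among them, 1 holds AP-1 letters and 1 ETS letters. The Piezo1 window is 74.0% G or C, against a median of 52.4% over all 32851 promoter windows. RefSeq windows were found for 54 of the 75 tested genes, 80 windows in all. AP-1 letters occurred in 3 of the 80 (6.75% of all windows), ETS in 3 (6.91%), SOX in 1 (3.02%), CRE in 0 (1.55%) and TATA in 4 (12.4%). A match is only a run of letters and no binding was measured.

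Calcium-activated potassium channels couple cell calcium to membrane voltage, and their members moved in opposite directions. Kcnn4, the intermediate-conductance channel, lies at chr7:24370263-24386690 on the plus strand of GRCm38. It had 1.30 and 1.44 CPM with TGF-alpha plus gefitinib, 11.8 and 13.0 CPM with TGF-alpha, and 1.56 and 0.892 CPM in control. The TGF-alpha libraries stood far above the other 4, whose ranges overlapped. Kcnn4 was 10.3-fold higher with TGF-alpha than in control (log2 3.36 ± 0.26 SE, edgeR adjusted p = 1.6e-07), and log2 -3.18 ± 0.26 lower with gefitinib than with TGF-alpha alone (adjusted p = 2.5e-07). Its difference between TGF-alpha plus gefitinib and control was log2 0.19 ± 0.35 (edgeR adjusted p = 0.81).

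Kcnma1, the large-conductance channel that responds to voltage as well as calcium, went the other way. It had 2.33 and 2.96 CPM with TGF-alpha plus gefitinib, 1.51 and 1.31 CPM with TGF-alpha, and 4.60 and 4.58 CPM in control. It fell by 1.70 ± 0.29 on the log2 scale with TGF-alpha (edgeR adjusted p = 0.00037). With gefitinib it was log2 0.89 ± 0.31 higher than with TGF-alpha alone (edgeR adjusted p = 0.038), a call lost in 5 of the 6 fits that left out 1 library, with adjusted p from 0.0538 to 0.192, and only the fit without TGF-alpha plus gefitinib replicate 1 kept it. The 3 groups did not overlap, with gefitinib-treated cells between the other 2 groups. Kcnn1, a small-conductance channel, had 9.39 and 9.51 CPM with TGF-alpha plus gefitinib, 4.76 and 4.44 CPM with TGF-alpha, and 8.74 and 8.79 CPM in control, and was called lower with TGF-alpha (log2 -0.93 ± 0.18, edgeR adjusted p = 0.00096) and higher with gefitinib (log2 1.04 ± 0.18, adjusted p = 0.00034). The fourth tested member, the sodium-activated channel Kcnt2, was called in neither comparison.

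Two-pore potassium channels carry background current, and of 14 members 5 were tested. With TGF-alpha 2 of them were lower and none higher, and with gefitinib 3 were higher and none lower. Kcnk2, a stretch-gated member, had 34.4 and 29.7 CPM with TGF-alpha plus gefitinib, 23.5 and 19.3 CPM with TGF-alpha, and 41.6 and 40.1 CPM in control. It fell by 0.93 ± 0.11 on the log2 scale with TGF-alpha (edgeR adjusted p = 1.1e-05) and was log2 0.58 ± 0.11 higher with gefitinib than with TGF-alpha alone (adjusted p = 0.00085). Kcnk1, a weakly inward-rectifying member, had 11.9 and 12.7 CPM with TGF-alpha plus gefitinib, 6.35 and 6.69 CPM with TGF-alpha, and 13.0 and 12.1 CPM in control. Its log2 fold change was -0.94 ± 0.15 with TGF-alpha (edgeR adjusted p = 0.0002) and 0.91 ± 0.15 with gefitinib against TGF-alpha (adjusted p = 0.00026). Kcnk1 with gefitinib overlapped control, whereas Kcnk2 with gefitinib stayed under it without a call (log2 -0.35 ± 0.10, edgeR adjusted p = 0.052). The remaining gefitinib call was Kcnk5, an acid-sensitive member named because it completes the count (log2 0.62 ± 0.16, edgeR adjusted p = 0.007), and it was lost without TGF-alpha replicate 1 (adjusted p = 0.0758).

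Voltage-gated potassium channels repolarise the membrane. Of 40 members 12 were tested, and 5 were lower and none higher with TGF-alpha, while 3 were higher and none lower with gefitinib against TGF-alpha. The highest members were close to even. Kcns1 had 48.8 and 45.8 CPM with TGF-alpha plus gefitinib, 48.1 and 47.8 CPM with TGF-alpha, and 52.3 and 41.6 CPM in control, overlapping throughout (TGF-alpha against control log2 0.04 ± 0.10). Kcna6 was log2 -0.25 ± 0.08 lower with TGF-alpha (edgeR adjusted p = 0.027), and the call was lost when any 1 of the 4 libraries compared was left out (adjusted p from 0.0794 to 0.118). Its exons also overlap those of the antisense gene Gm26673 over 2355 bases.

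The larger falls were in scarce genes. Kcna2, a delayed rectifier, had 7 and 20 counts with TGF-alpha plus gefitinib, 0 and 1 count with TGF-alpha, and 18 and 30 counts in control. The control total was 46.5 times that with TGF-alpha after scaling (exact 95% interval 7.96 to 1874, counting error only), and the total with gefitinib was 27.5 times that with TGF-alpha alone (4.54 to 1127). It reached the filter's cutoff in both libraries of control only, so it entered the test through the group where it was highest, and its calls are given as a description. Kcna2 was called in both comparisons (edgeR adjusted p = 0.00061 for TGF-alpha against control and 0.0038 for TGF-alpha plus gefitinib against TGF-alpha), and the second call was lost without TGF-alpha plus gefitinib replicate 2 (adjusted p = 0.0547). Kcnd2, which carries transient outward current, had 24 and 27 counts with TGF-alpha plus gefitinib, 4 and 5 counts with TGF-alpha, and 10 and 28 counts in control. Its log2 fold change was -1.98 ± 0.57 with TGF-alpha (edgeR adjusted p = 0.017), lost without control replicate 2, TGF-alpha replicate 1 or TGF-alpha replicate 2 (adjusted p from 0.0779 to 0.274, and a log2 value of -1.24 without control replicate 2), and 2.50 ± 0.55 with gefitinib (adjusted p = 0.0025). Of 15 inward rectifiers only Kcnj15 and Kcnj2 were tested, and neither was called in any comparison.

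Of 16 potassium channel accessory genes 5 were tested, and 1 was higher and 1 lower in each of these comparisons. Kcne4 encodes a single-span subunit that restrains several voltage-gated potassium channels, and it lies at chr1:78816758-78820028 on the plus strand. Kcne4 had 32.1 and 30.5 CPM with TGF-alpha plus gefitinib, 4.11 and 3.49 CPM with TGF-alpha, and 21.2 and 21.5 CPM in control. It was 5.60-fold lower with TGF-alpha than in control (log2 -2.48 ± 0.14, edgeR adjusted p = 3.2e-09), and 8.23-fold higher with gefitinib than with TGF-alpha alone (log2 3.04 ± 0.13, adjusted p = 2.5e-10). The 3 groups did not overlap, and the gefitinib libraries were above control (log2 0.56 ± 0.10, edgeR adjusted p = 0.0032). Kcnab2, a cytoplasmic beta subunit of voltage-gated potassium channels, had 5.0 and 6.16 CPM with TGF-alpha plus gefitinib, 14.5 and 10.98 CPM with TGF-alpha, and 6.95 and 8.15 CPM in control. Its call with gefitinib against TGF-alpha (2.29-fold lower, edgeR adjusted p = 0.00021) remained in every fit that left out 1 library, and its call with TGF-alpha against control (log2 0.75 ± 0.18, adjusted p = 0.0061) was lost without control replicate 1 or TGF-alpha replicate 1 (adjusted p 0.0604 and 0.105).

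**Figure D3:**
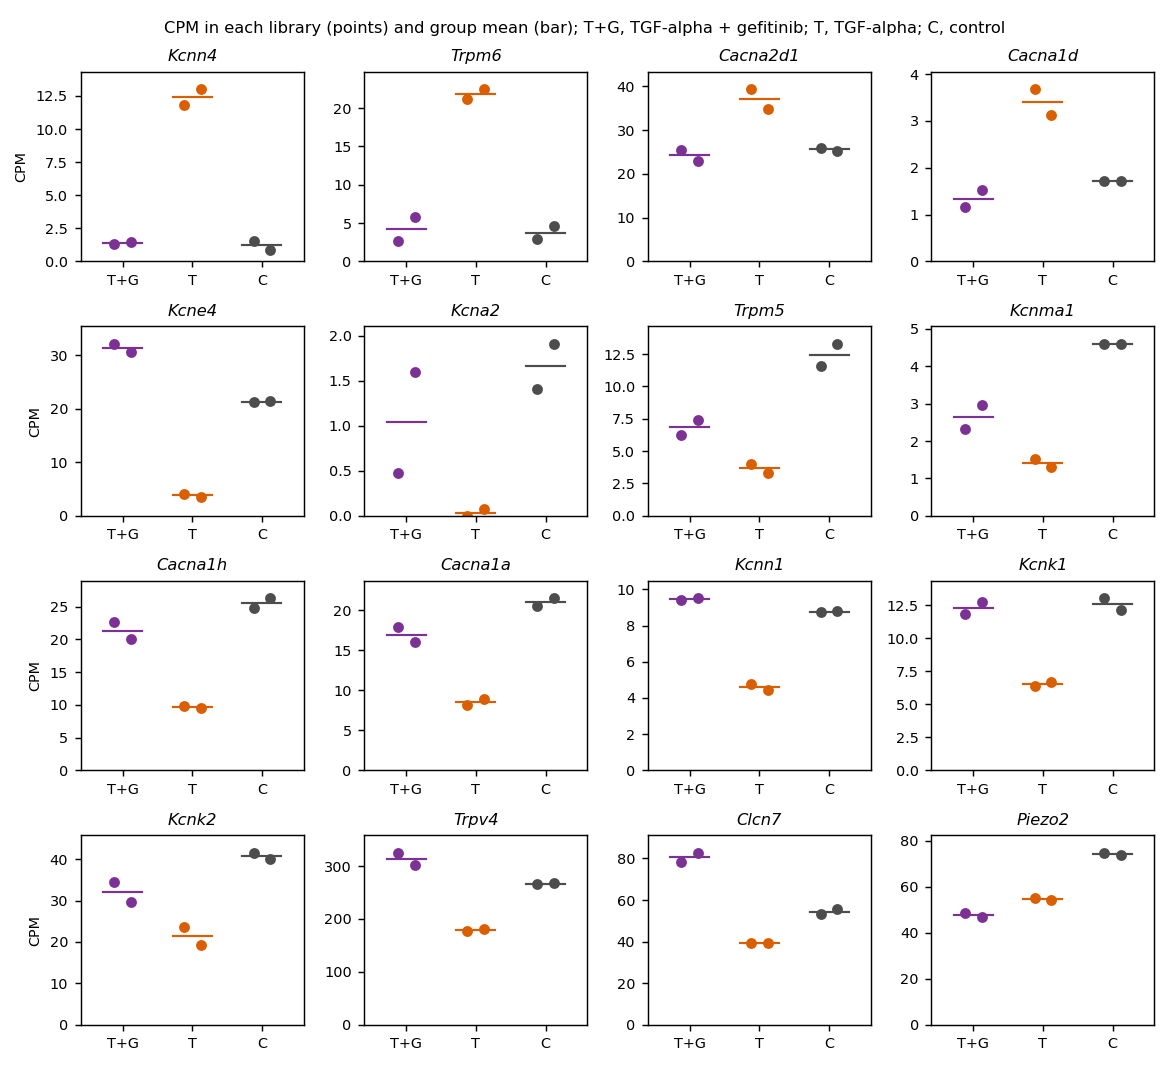
CPM of 16 channel genes in each library, with points for libraries and a bar for the mean of 2, in the order TGF-alpha plus gefitinib, TGF-alpha and control, and with each axis starting at 0. Kcnn4, Trpm6, Cacna2d1 and Cacna1d (top row) are highest with TGF-alpha, 11 of the others are lowest with TGF-alpha, and Piezo2 is lowest with TGF-alpha plus gefitinib.

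Voltage-gated calcium channel pores moved in both directions. Of 10 alpha1 genes 6 were tested, with 1 higher and 3 lower with TGF-alpha, and 2 higher and 2 lower with gefitinib against TGF-alpha. Cacna1h, a low-voltage-activated T-type pore, had 22.6 and 20.1 CPM with TGF-alpha plus gefitinib, 9.81 and 9.45 CPM with TGF-alpha, and 24.8 and 26.3 CPM in control. It fell by 1.41 ± 0.12 on the log2 scale with TGF-alpha (edgeR adjusted p = 3.2e-07) and was log2 1.15 ± 0.12 higher with gefitinib than with TGF-alpha alone (adjusted p = 3e-06). Cacna1a, the P/Q-type pore known from nerve terminals, had 18.0 and 16.0 CPM with TGF-alpha plus gefitinib, 8.15 and 8.94 CPM with TGF-alpha, and 20.5 and 21.5 CPM in control. Its log2 fold change was -1.30 ± 0.13 with TGF-alpha (edgeR adjusted p = 1.6e-06) and 0.99 ± 0.13 with gefitinib against TGF-alpha (adjusted p = 2.9e-05). Both genes were lowest in the TGF-alpha libraries, and their gefitinib libraries lay under control without a call (log2 -0.26 ± 0.11 and -0.31 ± 0.12).

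Cacna1d encodes an L-type pore, and its exons overlap those of Chdh on the other strand over 589 bases. Chdh differed by log2 -0.55 for TGF-alpha against control and 0.96 for gefitinib against TGF-alpha. Cacna1d itself was higher with TGF-alpha. It had 1.16 and 1.52 CPM with TGF-alpha plus gefitinib, 3.68 and 3.13 CPM with TGF-alpha, and 1.72 and 1.72 CPM in control. The call with gefitinib against TGF-alpha was log2 -1.35 ± 0.32 (edgeR adjusted p = 0.0046), and that with TGF-alpha against control was log2 0.98 ± 0.31 (adjusted p = 0.025), lost when any 1 of the 4 libraries compared was left out (adjusted p from 0.0599 to 0.152). Cacna1g, the other tested T-type pore, had 14.2 and 13.5 CPM with TGF-alpha plus gefitinib, 15.6 and 17.2 CPM with TGF-alpha, and 20.5 and 21.1 CPM in control. Control was the highest group for Cacna1g and the gefitinib libraries were the lowest. Its TGF-alpha call (log2 -0.34 ± 0.11, edgeR adjusted p = 0.03) was lost when any 1 of the 4 libraries compared was left out (adjusted p from 0.0505 to 0.191). Cacna1b, the N-type pore and a gene outside the naming rule that completes the count, was called only with gefitinib against TGF-alpha (log2 -0.87 ± 0.20, edgeR adjusted p = 0.004) and with gefitinib against control, while Cacna1c, the main L-type pore of heart and smooth muscle, had 3.08 and 3.52 CPM with TGF-alpha plus gefitinib, 3.03 and 1.89 CPM with TGF-alpha, and 3.59 and 3.25 CPM in control without a call.

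Of 16 calcium channel accessory genes 7 were tested, with 2 higher and 1 lower with TGF-alpha against control, and 3 higher and 2 lower with gefitinib against TGF-alpha. Cacna2d1, the alpha2-delta subunit that brings pores to the membrane and binds gabapentin, had 25.6 and 23.0 CPM with TGF-alpha plus gefitinib, 39.4 and 34.8 CPM with TGF-alpha, and 25.9 and 25.3 CPM in control. The TGF-alpha libraries were the highest and the other groups overlapped. It rose with TGF-alpha (log2 0.54 ± 0.10, edgeR adjusted p = 0.0007) and was lower with gefitinib than with TGF-alpha alone (log2 -0.61 ± 0.10, adjusted p = 0.00023). Its relative Cacna2d3, named to complete the count, was instead lower with TGF-alpha (log2 -0.86 ± 0.21, edgeR adjusted p = 0.0053) and higher with gefitinib (log2 0.76 ± 0.21, adjusted p = 0.011), the second call being lost without TGF-alpha replicate 1 or TGF-alpha plus gefitinib replicate 2 (adjusted p 0.0641 and 0.105). The difference between the responses of these relatives was not tested. Cacnb2, likewise named for the count, was log2 0.94 ± 0.19 higher with TGF-alpha (edgeR adjusted p = 0.0017). Cacnb3 was called only with gefitinib against TGF-alpha (log2 -0.45 ± 0.13, edgeR adjusted p = 0.015), and lost that call without TGF-alpha replicate 1, TGF-alpha replicate 2 or TGF-alpha plus gefitinib replicate 2 (adjusted p from 0.0544 to 0.111). Cacng7 had a call of log2 0.23 ± 0.08 in the same comparison (edgeR adjusted p = 0.042), lost when any 1 of the 4 libraries compared was left out (adjusted p from 0.0564 to 0.234). Cacnb4 had 13 and 8 counts with TGF-alpha plus gefitinib and 1 and 3 counts with TGF-alpha (ratio of totals 5.35, exact 95% interval 1.81 to 21.4, counting error only), and its edgeR adjusted p of 0.025, likewise a description of a gene that passed the filter through its high libraries, passed the threshold in none of the 4 fits that left out 1 library compared (0.0532 to 0.205).

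**Figure D4:**
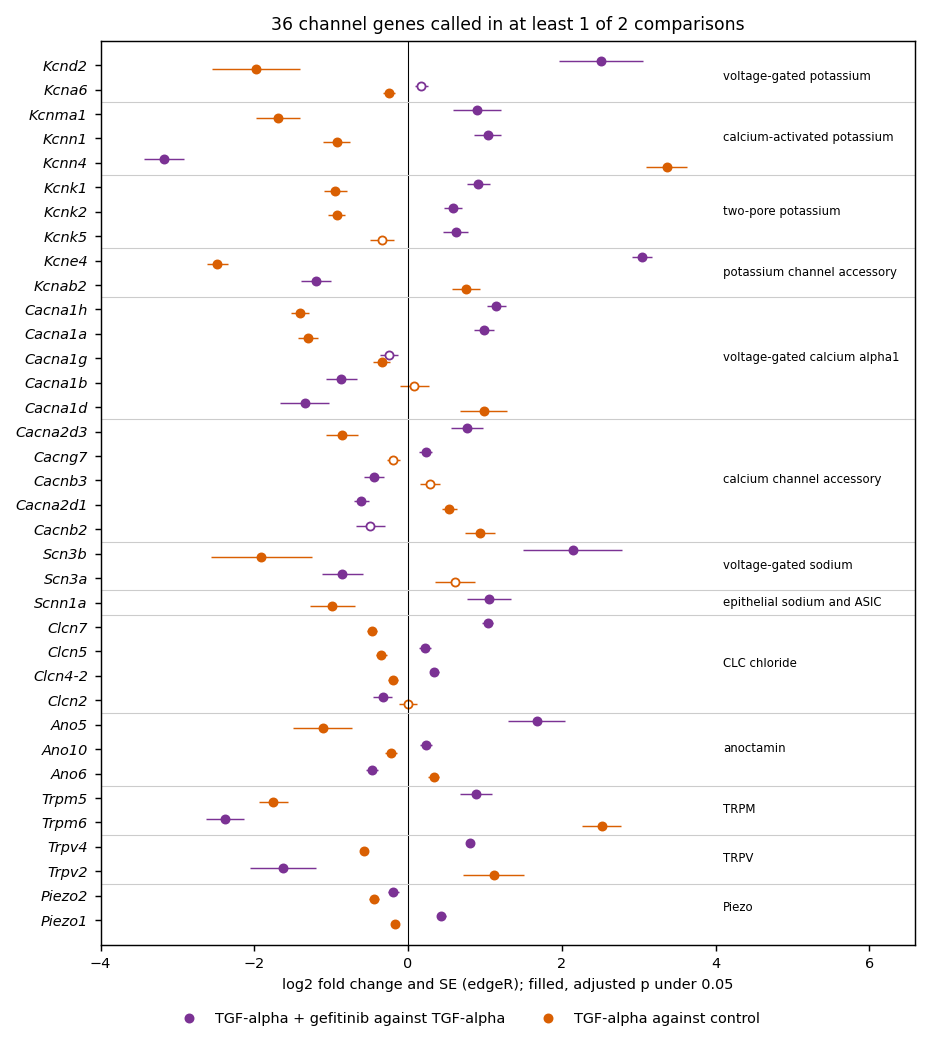
Log2 fold changes with SE for 36 of the 42 channel genes called in at least 1 of 2 comparisons, grouped by family, for TGF-alpha plus gefitinib against TGF-alpha and for TGF-alpha against control, with filled points at adjusted p under 0.05. Kcna2 and Cacnb4, with at most 4 counts in the TGF-alpha group, are among those left out, and the comparisons share the TGF-alpha libraries.

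Of 8 TRPM genes 5 were tested, and TGF-alpha raised 1 and lowered 1. Trpm6, a channel fused to a kinase and known for magnesium uptake in kidney and gut, lies at chr19:18749983-18892511 on the plus strand. Trpm6 had 2.67 and 5.84 CPM with TGF-alpha plus gefitinib, 21.1 and 22.5 CPM with TGF-alpha, and 2.89 and 4.58 CPM in control. The TGF-alpha libraries stood above the other 4, which overlapped. It was 5.73-fold higher with TGF-alpha than in control (log2 2.52 ± 0.25, edgeR adjusted p = 2.3e-06) and log2 -2.38 ± 0.25 lower with gefitinib than with TGF-alpha alone (adjusted p = 3.5e-06), a value that was -3.02 without TGF-alpha plus gefitinib replicate 2. Its more widely expressed relative Trpm7 had 63.7 and 65.9 CPM with TGF-alpha plus gefitinib, 57.5 and 57.6 CPM with TGF-alpha, and 61.9 and 67.9 CPM in control. Trpm7 was called in neither comparison (log2 -0.18 ± 0.07 for TGF-alpha against control, edgeR adjusted p = 0.07).

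Trpm5, a calcium-activated cation channel best known from taste cells, had 6.24 and 7.44 CPM with TGF-alpha plus gefitinib, 4.04 and 3.34 CPM with TGF-alpha, and 11.6 and 13.3 CPM in control. It was 3.37-fold lower with TGF-alpha (log2 -1.75 ± 0.19, edgeR adjusted p = 5.9e-06), and log2 0.88 ± 0.21 higher with gefitinib than with TGF-alpha alone (adjusted p = 0.0039). The 3 groups did not overlap, and gefitinib-treated cells lay between the other 2 groups. Trpm5 exons overlap those of Tssc4 on the other strand, and Tssc4 differed by log2 0.07 between TGF-alpha and control. Whether the counting used strand is not given in the sources used here.

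Trpv4 lies at chr5:114622152-114658421 on the minus strand and had 326 and 302 CPM with TGF-alpha plus gefitinib, 178 and 182 CPM with TGF-alpha, and 266 and 268 CPM in control. Trpv4 fell by 0.57 ± 0.05 on the log2 scale with TGF-alpha (edgeR adjusted p = 7e-07) and was log2 0.80 ± 0.05 higher with gefitinib than with TGF-alpha alone (adjusted p = 1.6e-08). Trpv2 moved oppositely but at low levels, with 0.822 and 0.480 CPM with TGF-alpha plus gefitinib, 2.24 and 1.89 CPM with TGF-alpha, and 1.01 and 0.892 CPM in control. Its call with TGF-alpha (log2 1.11 ± 0.40, edgeR adjusted p = 0.048) was lost in every fit that left out 1 library (adjusted p from 0.0532 to 0.231), and its call with gefitinib against TGF-alpha (log2 -1.63 ± 0.43, adjusted p = 0.0084) without TGF-alpha replicate 1 or TGF-alpha plus gefitinib replicate 2 (adjusted p 0.0744 and 0.0807). Of 7 TRPC genes 3 were tested, and Trpc1 had between 6.44 and 8.98 CPM in all libraries and was not called. Trpc2 shares exons on its own strand with neighbouring entries, so its reads are uncertain, and it was not called.

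The Piezo genes, which encode very large channels opened by membrane tension, were not placed alike by gefitinib. Piezo1 had 455 and 418 CPM with TGF-alpha plus gefitinib, 335 and 312 CPM with TGF-alpha, and 377 and 353 CPM in control. It was log2 0.43 ± 0.06 higher with gefitinib than with TGF-alpha alone (edgeR adjusted p = 2.6e-05). Its TGF-alpha call against control was small (log2 -0.17 ± 0.06, adjusted p = 0.032) and was lost without control replicate 1 or TGF-alpha replicate 2 (adjusted p 0.24 and 0.253). Piezo2 had 48.6 and 46.8 CPM with TGF-alpha plus gefitinib, 55.0 and 54.1 CPM with TGF-alpha, and 74.8 and 73.9 CPM in control. Piezo2 fell by 0.45 ± 0.06 on the log2 scale with TGF-alpha (edgeR adjusted p = 8.8e-05), and its lower value with gefitinib against TGF-alpha (log2 -0.19 ± 0.07, adjusted p = 0.04) lost the call in every fit that left out 1 library (adjusted p from 0.0523 to 0.173). Piezo1 was highest and Piezo2 lowest in the gefitinib libraries, and the difference between their responses was not tested. The exons of Piezo1 overlap those of Ctu2 on the other strand over 2441 bases, and Ctu2 had between 13.3 and 17.9 CPM. Ctu2 moved in the same directions as Piezo1, by log2 -0.36 for TGF-alpha against control and 0.30 for gefitinib against TGF-alpha. The part of Ctu2 in the Piezo1 counts was not tested.

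CLC genes encode chloride channels of the cell surface and chloride-proton exchangers of endosomes and lysosomes. Of 9 members 6 were tested, and 3 were lower and none higher with TGF-alpha, while 3 were higher and 1 lower with gefitinib against TGF-alpha. Clcn7, the lysosomal exchanger whose loss causes osteopetrosis, lies at chr17:25133391-25162104 on the plus strand. Clcn7 had 78.2 and 82.8 CPM with TGF-alpha plus gefitinib, 39.2 and 39.3 CPM with TGF-alpha, and 53.1 and 55.5 CPM in control. It fell by 0.47 ± 0.07 on the log2 scale with TGF-alpha (edgeR adjusted p = 0.00013) and was 2.05-fold higher with gefitinib than with TGF-alpha alone (log2 1.04 ± 0.07, adjusted p = 2.6e-08). No group of Clcn7 overlapped another, and gefitinib-treated cells were above control. The osteoclast marker Ctsk, a lysosomal protease, had 98.0 and 98.7 CPM with TGF-alpha plus gefitinib, 61.4 and 69.6 CPM with TGF-alpha, and 63.6 and 65.0 CPM in control, while Acp5 was not called in any comparison, and the part of this list in the Clcn7 result was not tested. The endosomal exchanger Clcn4-2 had 78.3 and 76.4 CPM with TGF-alpha plus gefitinib, 59.4 and 62.7 CPM with TGF-alpha, and 70.5 and 69.0 CPM in control. Its gefitinib call (log2 0.34 ± 0.06, edgeR adjusted p = 0.00069) remained in every fit that left out 1 library, while its TGF-alpha call (log2 -0.19 ± 0.06, adjusted p = 0.034) was lost when any 1 of the 4 libraries compared was left out (adjusted p from 0.0587 to 0.212). To complete the counts, the endosomal exchanger Clcn5 was lower with TGF-alpha (log2 -0.35 ± 0.07, edgeR adjusted p = 0.0024) and higher with gefitinib (log2 0.22 ± 0.08, adjusted p = 0.036), the second call being lost without TGF-alpha replicate 1, TGF-alpha replicate 2 or TGF-alpha plus gefitinib replicate 1 (adjusted p from 0.0763 to 0.271). The surface channel Clcn2 was lower with gefitinib than with TGF-alpha alone (log2 -0.33 ± 0.12, edgeR adjusted p = 0.049), a call lost when any 1 of the 4 libraries compared was left out (adjusted p from 0.0722 to 0.246). Clcn3 was called in neither comparison (log2 -0.29 ± 0.12 with TGF-alpha, edgeR adjusted p = 0.1).

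Anoctamins are calcium-activated chloride channels or lipid scramblases, and 7 of 10 were tested. Ano6, a scramblase needed for bone mineralisation in mice, had 50.8 and 46.4 CPM with TGF-alpha plus gefitinib, 66.1 and 68.6 CPM with TGF-alpha, and 51.4 and 55.7 CPM in control. It was called lower with gefitinib than with TGF-alpha alone (log2 -0.47 ± 0.07, edgeR adjusted p = 0.00017) and higher with TGF-alpha than in control (log2 0.33 ± 0.07, adjusted p = 0.003), a call lost without control replicate 1 (adjusted p = 0.0501). Ano5, whose human gene is mutated in a muscular dystrophy and a bone disease, had 3.22 and 4.24 CPM with TGF-alpha plus gefitinib, 0.721 and 1.60 CPM with TGF-alpha, and 2.26 and 2.74 CPM in control. Ano5 was log2 1.67 ± 0.37 higher with gefitinib than with TGF-alpha alone (edgeR adjusted p = 0.0026), and log2 2.35 higher without TGF-alpha replicate 2. Its TGF-alpha call (log2 -1.11 ± 0.38, adjusted p = 0.04, and log2 -1.79 without TGF-alpha replicate 2) was lost without control replicate 1, control replicate 2 or TGF-alpha replicate 1 (adjusted p from 0.076 to 0.303). Ano10 changed by log2 -0.22 ± 0.08 with TGF-alpha and 0.23 ± 0.08 with gefitinib (edgeR adjusted p = 0.044 and 0.036), and lost both calls on leaving out single libraries, in 4 and 5 of 6 fits (adjusted p up to 0.309, without control replicate 1, control replicate 2, TGF-alpha replicate 1 or TGF-alpha plus gefitinib replicate 1, and for the second call also TGF-alpha plus gefitinib replicate 2). Ano1, the classical calcium-activated chloride channel, stayed between 2.29 and 3.92 CPM without a call.

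Of 14 voltage-gated sodium channel genes 5 were tested. Scn3b, an accessory subunit, had 19 and 8 counts with TGF-alpha plus gefitinib, 3 and 3 counts with TGF-alpha, and 10 and 14 counts in control. It reached the filter's cutoff in both libraries of control only, and its calls are given as a description. Those calls (log2 -1.91 ± 0.65 with TGF-alpha and 2.14 ± 0.64 with gefitinib, edgeR adjusted p = 0.039 and 0.018) were lost in 5 and 3 of the 6 fits that left out 1 library (adjusted p from 0.0537 to 0.242), the exceptions being TGF-alpha plus gefitinib replicate 2 for the first call and that library with both controls for the second. The second value was log2 1.51 without TGF-alpha plus gefitinib replicate 1. Scn3a, a pore-forming subunit named after its values were seen, was lower with gefitinib than with TGF-alpha alone (log2 -0.85 ± 0.27, edgeR adjusted p = 0.024), and lost the call without TGF-alpha replicate 1 or TGF-alpha plus gefitinib replicate 2 (adjusted p 0.129 and 0.214). The nociceptor channel Scn9a had 1 count in the whole table. Scnn1a, the alpha subunit of the epithelial sodium channel, had 4.66 and 5.44 CPM with TGF-alpha plus gefitinib, 2.52 and 2.33 CPM with TGF-alpha, and 6.09 and 3.63 CPM in control. Its calls (log2 -0.98 ± 0.29 with TGF-alpha and 1.05 ± 0.29 with gefitinib, edgeR adjusted p = 0.018 and 0.011) were each lost in 3 fits (without control replicate 1, TGF-alpha replicate 1 or TGF-alpha replicate 2 for the first, adjusted p from 0.0689 to 0.223, and without TGF-alpha replicate 1, TGF-alpha replicate 2 or TGF-alpha plus gefitinib replicate 2 for the second, from 0.0508 to 0.0703). Asic1, an acid-sensing channel, was below the filter, with 10 and 7 counts with TGF-alpha plus gefitinib, 2 and 3 counts with TGF-alpha, and 9 and 15 counts in control.

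With TGF-alpha plus gefitinib against control, 9 of the 75 tested genes were called (background 9.52%), 5 higher (background 5.27%) and 4 lower (background 4.26%), and none reached 2-fold (background 0.462% higher and 0.228% lower). The edgeR count at an unadjusted p under 0.05 was 21 of the 75. No share over all genes was taken at that threshold, so this count is only a description. The median log2 fold change was -0.05 over the channel genes and 0.00 over all genes. Clcn7 (log2 0.57 ± 0.07, adjusted p = 8.1e-05), Kcne4 and Piezo2 (log2 -0.64 ± 0.07, adjusted p = 2.4e-05) were called in every fit that left out 1 library. Piezo1 (log2 0.26) and Trpv4 (log2 0.23) were also higher, and Trpm5 (log2 -0.87), Cacna1g (log2 -0.59) and Cacna1b (log2 -0.79) lower. Each of these 5 calls was lost without control replicate 2 (adjusted p from 0.0505 to 0.134 over all fits in which one was lost), those of Trpv4 and Cacna1b also without control replicate 1, and those of Piezo1, Trpv4 and Cacna1b also without TGF-alpha plus gefitinib replicate 1. Fewer channel genes were called without control replicate 1, control replicate 2 or TGF-alpha plus gefitinib replicate 1. Fewer of all genes were called in those fits too.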

How the data were processed

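RNA from 6 chondrocyte libraries was sequenced on the Ion Proton, per the labels' protocols, and the authors deposited 1 table of raw counts per gene. The genome build, GRCm38, is taken from the submitters' processing notes. Which aligner, counter and gene models were used, and whether strand was used, is not given in the sources used here. Channel genes were found by symbol among mRNA entries, and the members and all lists were chosen with earlier results of these data known.

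The whole table was fitted with edgeR 4.0.16 (R 4.3.3), with group as the only term, TMM scaling and a minimum count of 10, which left 15362 genes tested, 3 residual degrees of freedom and a biological coefficient of variation of 6.08%. Calls are two-sided, at a Benjamini-Hochberg adjusted p under 0.05 over all genes tested. CPM are TMM-scaled. Exon lengths and positions are from GENCODE M21, and promoters from RefSeq. With 2 libraries a group, an exact permutation test of a single gene cannot go below p = 0.333. Exact intervals on counts cover counting error only. Named genes were those with at least a 2-fold call and no overlap between libraries (up to 12 each way), the 2 highest per family, a list of channels known in skeletal cells and the matched non-channel genes. A few channel genes are counted but not reported here by name. Genes added to complete a count were chosen after their values were seen. The script was tested on simulated data. Alternatives were relative log expression factors, no filter, DESeq2 1.42.0, 4-library fits, replicate block, mRNA entries only, a test against 1.2-fold, and leaving out each library.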

Additional observations from a re-analysis of the deposited data

How the results depend on the processing

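No called value changed sign under any of the 13 alternatives, and 35 of 68 calls of named genes held in all that gave a value. A further 41 uncalled values changed sign, all with an adjusted p of at least 0.237. Fitted on mRNA entries alone, 2524 higher and 2150 lower of 12731 genes were called with TGF-alpha against control. With gefitinib against TGF-alpha these were 2569 and 2696, and with TGF-alpha plus gefitinib against control 921 and 811. The channel genes called in that fit were 35, 39 and 12 in the same order. DESeq2 called 22 channel genes with TGF-alpha against control, 15 of them lower, where 1657 of all 16366 genes were higher and 1435 lower. With gefitinib against TGF-alpha it called 16 higher and 7 lower (1646 and 1826 of 15391 genes). With TGF-alpha plus gefitinib against control it called 6, of which 2 were lower (475 higher and 437 lower of 10030 genes). Testing against a 1.2-fold change gave 5 higher and 14 lower with TGF-alpha (1366 and 953 of all 15362 genes). With gefitinib against TGF-alpha this test called 27 channel genes (1202 higher and 1467 lower of all genes). It gave 1 higher and 2 lower with TGF-alpha plus gefitinib against control (190 and 87 of all genes). Over all genes, fewer were called in each comparison whenever a library of that comparison was left out. The channel ranges that follow are therefore not to be read as specific to channel genes. Leaving out single libraries gave 5 to 9 higher and 15 to 31 lower with TGF-alpha against control, 15 to 24 higher and 7 to 11 lower with gefitinib against TGF-alpha, and 2 to 5 higher and 1 to 5 lower with TGF-alpha plus gefitinib against control.

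The labels number the replicates but do not pair them, and deviations of same-numbered libraries correlated at 0.00858, -0.0324 and -0.0102 over 11253 genes. With a replicate block the higher and lower counts were 8 and 25 for TGF-alpha (2376 and 2074 of all 15362 genes). They were 23 and 12 for gefitinib against TGF-alpha (2513 and 2529 of all genes). For TGF-alpha plus gefitinib against control they were 4 and 5 (740 and 595 of all genes). Depth limits the 111 untested channel genes, which were not seen above 15 counts.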

Other observations

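Other genes of ion and water movement, from 10 lists of gap junction, calcium store, pump, cotransporter, anion and further cation channel and aquaporin genes, numbered 154, of which 97 were tested. With TGF-alpha against control 25 were higher and 23 lower (15.9% and 14.0% of all genes tested), with gefitinib against TGF-alpha 26 higher and 22 lower (17.0% and 16.9% of all genes), and with TGF-alpha plus gefitinib against control 11 higher and 6 lower (5.27% and 4.26% of all genes). The last comparison shares libraries with each of the others.

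Panx3, a hemichannel of maturing chondrocytes and osteoblasts, had 36.5 and 36.2 CPM with TGF-alpha plus gefitinib, 8.22 and 9.96 CPM with TGF-alpha, and 40.2 and 41.7 CPM in control. It was log2 -2.17 ± 0.11 lower with TGF-alpha (edgeR adjusted p = 1.35e-09). The gap junction gene Gja1, connexin 43, had 207 and 191 CPM with TGF-alpha plus gefitinib, 346 and 331 CPM with TGF-alpha, and 204 and 210 CPM in control (TGF-alpha against control log2 0.71 ± 0.05, edgeR adjusted p = 9.56e-08). Fxyd5, a regulator of the sodium-potassium pump, was log2 1.78 ± 0.09 higher with TGF-alpha and its relative Fxyd6 log2 -1.11 ± 0.08 lower (edgeR adjusted p = 1.64e-09 and 9.04e-08). The potassium-dependent sodium-calcium exchanger Slc24a3 had 109 and 105 CPM with TGF-alpha plus gefitinib, 39.3 and 42.0 CPM with TGF-alpha, and 105 and 99.0 CPM in control.

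A proton channel and a water channel stood apart from control when gefitinib was present. Hvcn1 had 3.63 and 4.72 CPM with TGF-alpha plus gefitinib, 1.51 and 0.945 CPM with TGF-alpha, and 1.48 and 1.97 CPM in control (TGF-alpha plus gefitinib against control log2 1.25 ± 0.32, edgeR adjusted p = 0.023). Aqp1 had 54.4 and 55.2 CPM with TGF-alpha plus gefitinib, 75.9 and 82.0 CPM with TGF-alpha, and 79.9 and 73.4 CPM in control (TGF-alpha plus gefitinib against control log2 -0.48 ± 0.07, edgeR adjusted p = 0.00045). Without cells given gefitinib alone, an effect of the drug and the block of the ligand cannot be told apart.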
